A study of Arabidopsis thaliana with 12 samples.

Results

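SWEET11 (AT3G48740), SWEET13 (AT5G50800) and SAG29 (AT5G13170, also called SWEET15) are sugar transporters of the SWEET family, and their transcripts were followed in Arabidopsis thaliana leaves that express a fragment of the CPR5 protein. A gene was taken where a probe set of the ATH1 microarray had it as its single gene. This gave 3 genes, with 1 probe set each, of 13350 genes so measured and of 16 measured SWEET genes. The 3 genes were chosen with results of these data known: SAG29 for its rise and SWEET11 for its smaller rise after induction of the fragment, and SWEET13 for its rise in dexamethasone-sprayed wild type and its opposite response in the transgenic line. The dexamethasone responses, their difference between genotypes and the genotype difference after dexamethasone are therefore given for these 3 genes as a description without a test.

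The 12 arrays cover mature leaves of 4-week-old plants in 4 groups of 3 biological replicates. Wild-type Col-0 plants were sprayed with water or with 50 µM dexamethasone, a synthetic glucocorticoid. Plants of the Dex:YFP-CPR5-C line, in the same Col-0 background and here called CPR5-C, received the same sprays, and in them dexamethasone switches on a YFP fusion, a fluorescent protein joined to a C-terminal fragment of CPR5. All leaves were collected 24 hours after the spray. According to the study's design the fragment interferes with the native CPR5 protein, a nuclear pore component whose loss is known to give lesions and early senescence. The wild type is not described as carrying the dexamethasone-responsive construct, and the number of independent transgenic lines is not given in the sources used here.

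SWEET proteins let sugars pass cell membranes down their concentration gradient, in contrast to the proton-coupled SUC and STP carriers, which drive uptake. SWEET11 and its close relative SWEET12 export sucrose from phloem parenchyma cells of the leaf, the step before the sucrose is loaded into the phloem. SWEET13 is also a sucrose transporter, is known to be raised in leaves that lack SWEET11 and SWEET12, and can carry gibberellin. SAG29 is best known from senescing leaves, from seeds, where it helps to fill the embryo, and from plants under osmotic stress.

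The deposited log2 signals were centred: every probe set has a median of 0 across the 12 arrays. They show differences between groups and hold no level, so neither the levels of different genes nor the leaf identity of the samples could be compared with markers. The 3 CPR5-C dexamethasone arrays stood apart, with an SD across probe sets of 0.68 to 0.69, where the other 9 arrays had 0.13 to 0.23. In whole leaves, fewer cells that express a gene and less of its RNA per cell cannot be told apart. Of 8 phloem and vascular markers none was measured by a named probe set, so the part of phloem cells in the values below was not tested.

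SAG29 was high in 1 group and flat in the other 3. On the CPR5-C dexamethasone arrays its centred log2 signal was 6.51, 6.20 and 6.37. On the CPR5-C water arrays it was -0.16, -0.0078 and 0.0078. In wild type it was -0.42, 0.012 and -0.16 after water and -0.19, -0.21 and 0.29 after dexamethasone. The 3 CPR5-C dexamethasone arrays lay far above the other 9, whereas the ranges of the 3 low groups overlapped. The group means in falling order were 6.36 ± 0.15 for CPR5-C dexamethasone (SD, n = 3), -0.035 ± 0.28 for wild-type dexamethasone, -0.053 ± 0.093 for CPR5-C water and -0.19 ± 0.22 for wild-type water.

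As log2 changes, SAG29 was 6.42 higher after dexamethasone than after water in CPR5-C plants (standard error of the fit, SE, 0.14), and 0.15 higher in wild type (SE 0.14). After dexamethasone it was 84.4-fold higher in CPR5-C than in wild-type plants (log2 difference 6.40, SE 0.14). Its change in CPR5-C plants ranked 4 from the top among the single-gene probe sets and 7 among all probe sets. The 95% interval of its change in wild type ran from -0.14 to 0.44. Quantile normalization of the centred values left a rise of 2.86 in CPR5-C plants. It gives the arrays an equal spread, so by construction it narrows the CPR5-C dexamethasone arrays, which had the widest, and widens the others.

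SWEET13 took a different value in each group, and the order of its groups was unlike that of SAG29. Its centred log2 signal was 0.70, 0.82 and 0.87 on the wild-type dexamethasone arrays and -0.22, -0.36 and -0.34 on the wild-type water arrays. On the CPR5-C arrays it was 0.29, 0.22 and 0.54 after water and -2.63, -2.33 and -2.52 after dexamethasone. No 2 neighbouring groups overlapped. The share of all probe sets with groups so separated was not counted, here or for the genes below. Wild-type dexamethasone was highest (0.80 ± 0.087, SD, n = 3), then CPR5-C water (0.35 ± 0.17), wild-type water (-0.31 ± 0.073) and CPR5-C dexamethasone (-2.49 ± 0.15).

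The same spray thus went with a higher SWEET13 signal in wild type and a lower one in CPR5-C plants. The log2 difference between dexamethasone and water was 1.10 in wild type (SE 0.094, 2.15-fold higher). In CPR5-C plants it was -2.84 (SE 0.094), which is 7.17-fold lower. After dexamethasone SWEET13 was 9.78-fold lower in CPR5-C than in wild-type plants (-3.29, SE 0.094). Its change in wild type ranked 5 from the top among the single-gene probe sets and its change in CPR5-C plants 36 from the bottom. Of 13 single-gene probe sets that were at least 1 higher on the log2 scale in wild type, 4 were at least 1 lower in CPR5-C plants and 4 were at least 1 higher there. SWEET13 itself is counted in the 13 and among those that were lower. Of all 13513 single-gene probe sets, 1208 changed by at least 1 in either direction in CPR5-C plants (limma adjusted p under 0.05). With quantile normalization the SWEET13 differences were 2.62 in wild type and -1.76 in CPR5-C plants.

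SWEET11 moved least of the 3. Its centred log2 signal was 0.36, 0.37 and 0.45 on the CPR5-C dexamethasone arrays and -0.089, -0.23 and -0.045 on the CPR5-C water arrays. In wild type it was 0.051, 0.095 and 0.045 after dexamethasone and -0.10, -0.085 and -0.098 after water. CPR5-C dexamethasone stood above all other groups (mean 0.39 ± 0.049, SD, n = 3). Wild-type dexamethasone came next (0.064 ± 0.027) and did not overlap the 2 water groups, which overlapped each other (-0.096 ± 0.010 in wild type and -0.12 ± 0.096 in CPR5-C plants).

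The SWEET11 signal was 0.51 higher on the log2 scale after dexamethasone in CPR5-C plants (SE 0.064, 1.42-fold). In wild type it was 0.16 higher (SE 0.064, 1.12-fold), and the difference between these responses was 0.35 (SE 0.091). Its change in CPR5-C plants ranked 1513 from the top of the 13513 single-gene probe sets. With arrays scaled to their poly-A spike controls, which moved the median of all probe sets to 0.39 in this comparison and to -0.17 in wild type, the SWEET11 changes were 0.92 and -0.014. SAG29 and SWEET11 were thus highest in the same group, in which SWEET13 was lowest.

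**Figure D1:**
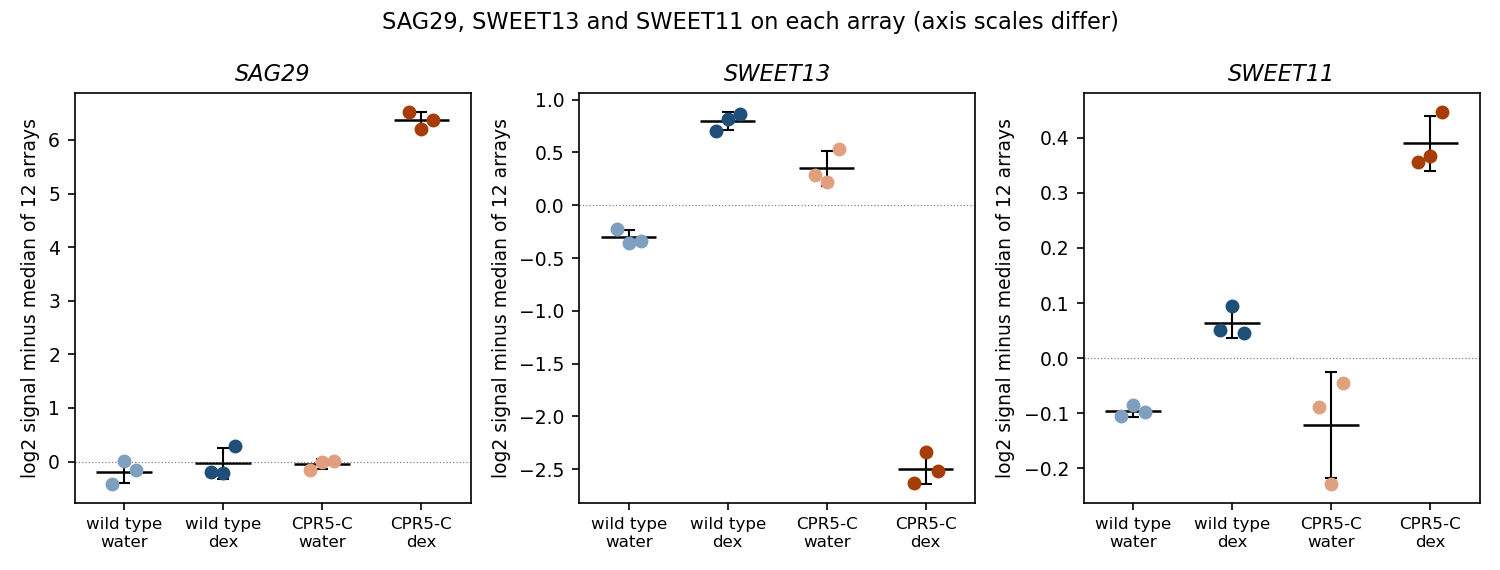
Centred log2 signal (vertical axis, scale differing between panels) of SAG29, SWEET13 and SWEET11 on the 12 arrays. Points are arrays, horizontal lines the group means and bars the SD of 3 arrays; SAG29 is near 0 in 3 groups and at 6.36 in CPR5-C dexamethasone leaves, where SWEET13 is at -2.49.

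The uninduced line was compared with wild type after water, the 1 contrast that the choice of the genes did not name, although it uses the same water arrays as the dexamethasone responses. SWEET13 was 1.57-fold higher in CPR5-C water than in wild-type water leaves (log2 difference 0.65, SE 0.094, limma adjusted p = 0.000681), with all 3 CPR5-C arrays above the 3 wild-type arrays. SAG29 (0.14, 95% interval -0.15 to 0.43, adjusted p = 0.666) and SWEET11 (-0.025, interval -0.16 to 0.11, adjusted p = 0.892) did not pass the test. The threshold was an adjusted p of 0.05 over all probe sets, which 7.08% of them passed in this comparison. The 1 passing gene is thus the one chosen for a rise from wild-type water leaves and a fall from CPR5-C water leaves. A low value in the former and a high value in the latter both favour that choice and raise this difference. The contrast also equals the genotype difference after dexamethasone minus the difference between the responses, both known at the choice. The p-value of SWEET13 is therefore not independent of the choice and carries no weight as a test.

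The remaining SWEET genes served as the background of the family. Of 17 SWEET loci, 16 were measured by a single-gene probe set; SWEET12 was not analysed here. Among the 13 measured genes other than SAG29, SWEET13 and SWEET11, 3 rose and 4 fell in CPR5-C plants after dexamethasone, and 6 did not pass the test (limma, adjusted over all probe sets). Across all probe sets 47.9% passed, 23.3% higher and 24.6% lower, so the share of the family that passed was near the background. The median change of the 13 genes was 0.012, beside -0.017 for all probe sets. Spike scaling turned the split of the calls over all probe sets from 48.7% to 87.8% higher, and 11 of the 13 genes then passed, beside 66.9% of all probe sets. In wild type 0 of the 13 passed by limma, against 9.08% of all probe sets. An unadjusted p under 0.05 was seen for 5 of the 13, beside 4806 of all 22746 probe sets.

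Among SWEET genes of the plasma membrane, the largest rise beside SAG29 was that of SWEET4, a hexose transporter known from leaf veins. Its centred log2 signal was 3.27, 2.95 and 2.51 on the CPR5-C dexamethasone arrays and between -0.19 and 0.17 on the other 9. It rose 7.03-fold (log2 change 2.81, SE 0.14, limma adjusted p = 4.6e-10), with -0.038 in wild type (adjusted p = 0.920). SWEET1, a glucose transporter, stood at 1.47, 1.43 and 1.07 on the CPR5-C dexamethasone arrays and between -0.28 and 0.27 elsewhere. It rose 2.59-fold (SE 0.11, adjusted p = 4.92e-08). In both genes the CPR5-C dexamethasone arrays did not overlap any other group. The share of all probe sets without such overlap was not counted, and 47.9% of them passed the test for the CPR5-C response.

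The 3 SWEET genes whose products lie in the vacuolar membrane, SWEET2, SWEET16 and SWEET17, were all lower in CPR5-C plants after dexamethasone. They were grouped by this known location after their values had been seen, so their common direction carries no test. Across all probe sets 24.6% fell in this comparison. SWEET17, a fructose carrier, stood at -1.50, -1.86 and -2.16 on the CPR5-C dexamethasone arrays and between -0.12 and 0.23 on the other 9. It fell by 2.03 on the log2 scale (SE 0.12, limma adjusted p = 3.30e-09). SWEET2, which acts on glucose, stood at -1.16, -1.29 and -1.41 in that group and between -0.085 and 0.24 elsewhere. It fell by 1.25 (SE 0.071, adjusted p = 1.89e-09). SWEET16 fell by 0.73 (SE 0.13, adjusted p = 0.000236), and did not pass with arrays scaled to their spike controls (-0.32, adjusted p = 0.0765). In wild type SWEET17 was at 0.073 (adjusted p = 0.798), SWEET2 at -0.14 (adjusted p = 0.282) and SWEET16 at -0.35 (adjusted p = 0.126).

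SWEET10, which is known from floral induction, is the direct neighbour of SWEET13 on chromosome 5 in the TAIR10.1 annotation. It rose slightly in CPR5-C plants (0.25, SE 0.088, limma adjusted p = 0.0271), where SWEET13 was lower. The SWEET10 call was lost without CPR5-C water replicate 1 (adjusted p = 0.0960), CPR5-C dexamethasone replicate 1 (0.0595) or replicate 2 (0.0920), and with quantile normalization (0.235). SWEET5, known from pollen, fell by 0.18 (SE 0.060, adjusted p = 0.0229), but was lost without CPR5-C water replicate 2 (0.0701) or CPR5-C dexamethasone replicate 3 (0.0560) and with quantile normalization (0.134), and stood above 0 with spike scaling (0.23). SWEET14, which resembles SWEET13 and is also known for gibberellin transport, was at -0.029 in CPR5-C plants (SE 0.14, adjusted p = 0.893, and 0.38 with spike scaling) and -0.10 in wild type (adjusted p = 0.739). SWEET3, SWEET6, SWEET7, SWEET8 and SWEET9 did not pass in any of the 5 comparisons without spike scaling and with all arrays, with changes in CPR5-C plants from -0.0056 to 0.14.

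The difference between the 2 dexamethasone responses was tested for the 13 genes as well. It was positive for SWEET4 (2.85, SE 0.20, limma adjusted p = 4.02e-08), SWEET1 (1.05, SE 0.15, adjusted p = 4.92e-05) and SWEET10 (0.47, SE 0.12, adjusted p = 0.00716). It was negative for SWEET17 (-2.11, SE 0.17, adjusted p = 2.17e-07) and SWEET2 (-1.11, SE 0.10, adjusted p = 5.96e-07). The SWEET16 response did not differ past the threshold (-0.38, adjusted p = 0.122), except without CPR5-C dexamethasone replicate 2 (-0.54, adjusted p = 0.0112). These are 5 of 13 genes, beside 38.5% of all probe sets, and 2 of 13 (SWEET4 and SWEET17), beside 15.6%, with quantile normalization. For SAG29 and SWEET13 the difference between the responses was 6.26 (SE 0.19) and -3.94 (SE 0.13), larger in size than for any of the 13. Both were chosen for their responses, so this order carries no weight. For SWEET11 the difference was 0.35 (SE 0.091), smaller than for SWEET10.

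Set against dexamethasone-sprayed wild type, which shares the CPR5-C dexamethasone arrays with the response above, 3 of the 13 genes were higher in CPR5-C plants and 3 lower, where 47.4% of all probe sets differed. SWEET4 was 8.02-fold higher and SWEET1 2.36-fold higher (log2 difference 1.24, SE 0.11). SWEET10 was at 0.29, a call lost without wild-type dexamethasone replicate 1 (limma adjusted p = 0.0554). SWEET17 was at -1.87, SWEET2 at -1.33 and SWEET16 at -0.48, the last of which turned to 0.041 with spike scaling. With quantile normalization 3 of the 13 passed (SWEET4, SWEET17 and SWEET2), beside 22.5% of all probe sets. Between the 2 water groups 0 of the 13 genes differed by limma, beside 7.08% of all probe sets, with values from -0.23 for SWEET2 (adjusted p = 0.0731) to 0.24 for SWEET17 (adjusted p = 0.318). SWEET2 alone of the 13 had an unadjusted p under 0.05 there, beside 4478 of all 22746 probe sets. Both SWEET2 and SWEET17 passed with quantile normalization, as did 8.47% of all probe sets.

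**Figure D2:**
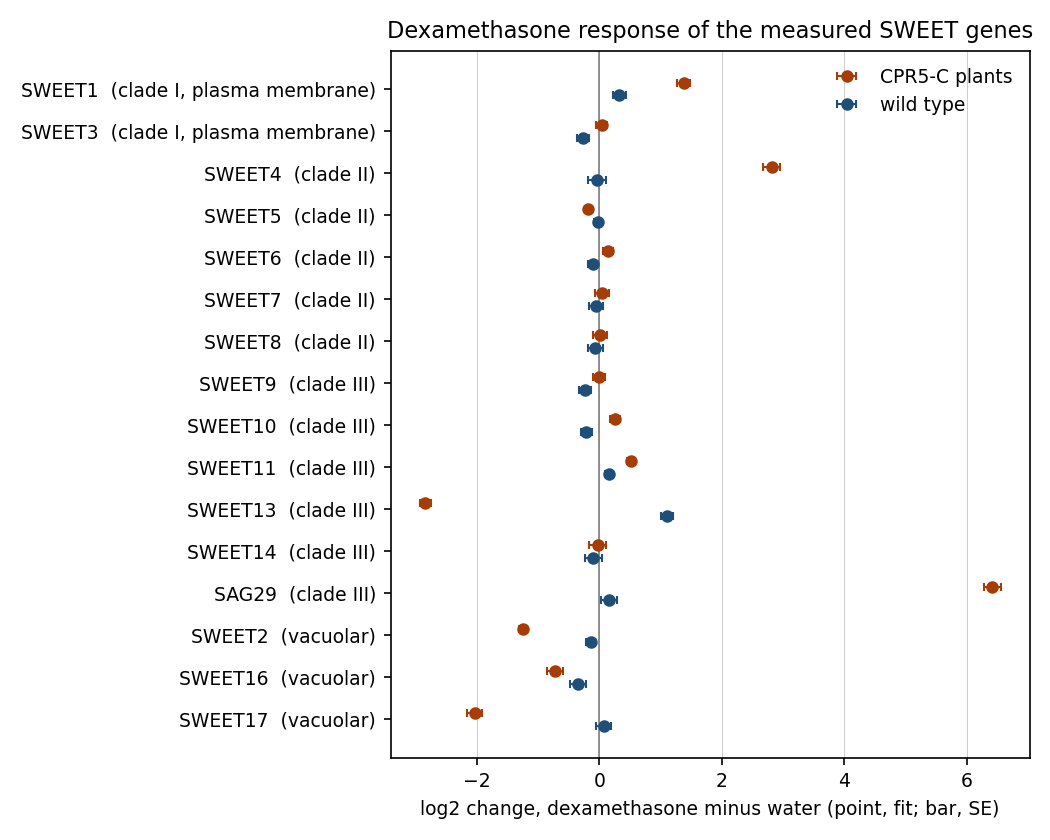
Log2 change between dexamethasone and water (horizontal axis) of the 16 measured SWEET genes in CPR5-C plants (orange) and wild type (blue), ordered by clade with the vacuolar genes last. Points are fitted changes from 3 arrays per group and bars the SE; SAG29 at 6.42 and SWEET13 at -2.84 are the ends of the range in CPR5-C plants, and SWEET13 at 1.10 is the highest in wild type.

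SWEET proteins act beside carriers and enzymes that make, store and split sucrose, and the measured genes of these lists were examined next. In CPR5-C plants after dexamethasone 10 of the 22 measured list genes outside the SWEET family rose and 7 fell, beside 23.3% of all probe sets higher and 24.6% lower, with a median of 0.12. The lists were chosen by known function, but with earlier results of these data known. These counts and the p-values of the list genes below are therefore not independent of that choice, and an excess over all probe sets was not tested. No sucrose-proton symporter (of 9), plastid sugar exporter (of 3), sugar starvation marker (of 5) or abscisic acid gene (of 8) was measured by a named probe set, so SUC2, which takes up the sucrose that SWEET11 releases, was not analysed here.

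For the vacuole, 2 of 6 measured genes rose, 3 fell and 1 did not pass, where 47.9% of all probe sets passed. TST1, a proton-coupled carrier that fills the vacuole with sugar, rose 9.13-fold (3.19, SE 0.10, limma adjusted p = 3.39e-12), while its relative TST2, named here after its value was seen, fell by 0.26 (SE 0.079, adjusted p = 0.0131). That fall was lost without CPR5-C water replicate 3 (adjusted p = 0.0608) or CPR5-C dexamethasone replicate 1 (0.0632) and with quantile normalization (0.0530), and turned to 0.15 with spike scaling. SFP2 and SFP1, of the ERD6-like sugar carrier family, fell by 2.25 (SE 0.076) and 0.58 (SE 0.075), the latter to -0.17 and not called with spike scaling (adjusted p = 0.326). VGT2 was at 0.27 in CPR5-C plants (adjusted p = 0.0102, and 0.509 with quantile normalization) and at 0.28 in wild type (adjusted p = 0.0374, not passed without any 1 of 6 arrays). Of the 4 measured hexose-proton symporters (of 14), STP3, known to respond to wounding, rose 2.71-fold (1.44, SE 0.093, adjusted p = 6.88e-09), and STP5, STP8 and STP10 did not pass (0.11 to 0.12). With spike scaling STP5, STP8 and STP10 were at 0.52 to 0.53 and passed (limma adjusted p = 0.00391 to 0.00709), as did 66.9% of all probe sets.

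Of 7 sucrose synthesis genes 2 were measured. SPS4F, a sucrose phosphate synthase, fell by 1.90 (SE 0.090, limma adjusted p = 2.98e-10), and SPP2, the phosphatase of the next step, rose slightly (0.22, SE 0.061, adjusted p = 0.00751, and 0.208 with quantile normalization). Of 14 genes of the cleavage list only 2 were measured, and both rose, as did 23.3% of all probe sets. VI1, an invertase of the vacuole, rose 2.17-fold (1.12, SE 0.090, adjusted p = 7.54e-08). CWINV6, named as a cell wall invertase but known to split fructans, rose 2.11-fold (1.08, SE 0.18, adjusted p = 0.000109). In wild type, apart from VGT2, none of these 14 carrier and enzyme genes passed, against 9.08% of all probe sets, and the values ran from -0.16 for STP10 to 0.24 for TST2.

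Of the 6 genes of the senescence list, which SAG29 is linked to by name, only 2 were measured. SAG101 (0.77, SE 0.11) and WRKY6 (0.54, SE 0.10) both rose in CPR5-C plants, where 23.3% of all probe sets rose. Neither passed with quantile normalization (limma adjusted p = 0.0800 and 0.211). Of 11 genes of gibberellin metabolism and reception 3 were measured, all of them receptors. GID1A (0.66, SE 0.096) and GID1B (0.91, SE 0.13) rose and GID1C fell by 0.53 (SE 0.11), where 23.3% of all probe sets rose and 24.6% fell. With quantile normalization GID1B was at 0.42 and not called. With spike scaling GID1C was at -0.11 and not called (limma adjusted p = 0.530). Of 7 epidermis and guard cell markers 2 were measured. Both of these guard cell genes, GASA9 (-3.06, SE 0.12) and FMA (-0.28, SE 0.082), fell in the same comparison, as did 24.6% of all probe sets. GASA9 was also lower after dexamethasone in wild type (-0.61, SE 0.12, limma adjusted p = 0.00330). The FMA call was lost without CPR5-C dexamethasone replicate 2 (-0.20, limma adjusted p = 0.0611), and its value turned to 0.13 with spike scaling. RCA, the 1 measured of 4 mesophyll markers, was at -0.068 (adjusted p = 0.374, and 0.34 with spike scaling). The part of these cell types in the SWEET changes was not tested.

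**Figure D3:**
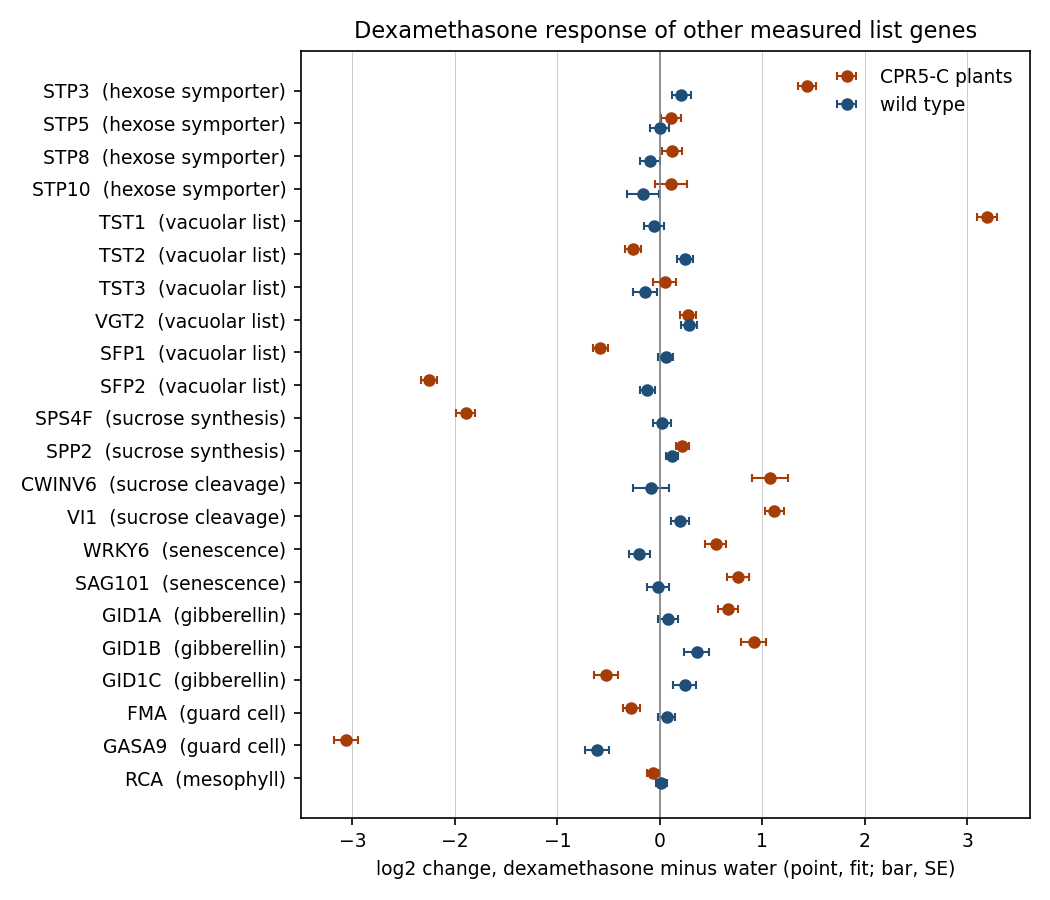
Log2 change between dexamethasone and water (horizontal axis) of the 22 other measured list genes in CPR5-C plants (orange) and wild type (blue). Points are fitted changes from 3 arrays per group and bars the SE; TST1 at 3.19 and GASA9 at -3.06 are the ends of the range in CPR5-C plants.

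The genes most like each transporter were found by Pearson correlation with the other 13512 single-gene probe sets over the 12 arrays, which share the 4 groups, so that r mostly follows the group means. For SAG29 they were AT4G23680 (r = 0.999), AT1G28600 (0.998), AT5G27760 (0.998), CLE44 (0.998), a peptide signal of vascular tissue, and the beta-glucosidase BGLU45 (0.998). In all, 938 probe sets reached r = 0.95 with SAG29. SWEET11, which was highest on the same 3 arrays, did not (r = 0.915). The changes of these 5 genes in CPR5-C plants ran from 1.71 to 8.44 on the log2 scale.

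For SWEET13 the nearest were AT2G15020 (0.993), AT1G21050 (0.992), AT5G03380 (0.990), AT3G21390 (0.989) and ALDH2C4 (0.988), an aldehyde dehydrogenase, and 236 reached r = 0.95. All 5 were higher after dexamethasone in wild type (0.16 to 0.70) and lower in CPR5-C plants (-0.59 to -1.81), by less than SWEET13 in both genotypes. For SWEET11 they were AT4G33180 (0.982), AT3G20510 (0.981), AT5G17610 (0.981), ASPGA1 (0.975), an asparaginase, and AT3G45310 (0.973), and 72 reached r = 0.95. Their changes in CPR5-C plants ran from 0.54 to 1.12, beside 0.51 for SWEET11. By Spearman's rho 0 of the 5 nearest genes were shared with the Pearson choice for any of the 3 transporters, so these names depend on the measure.

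**Figure D4:**
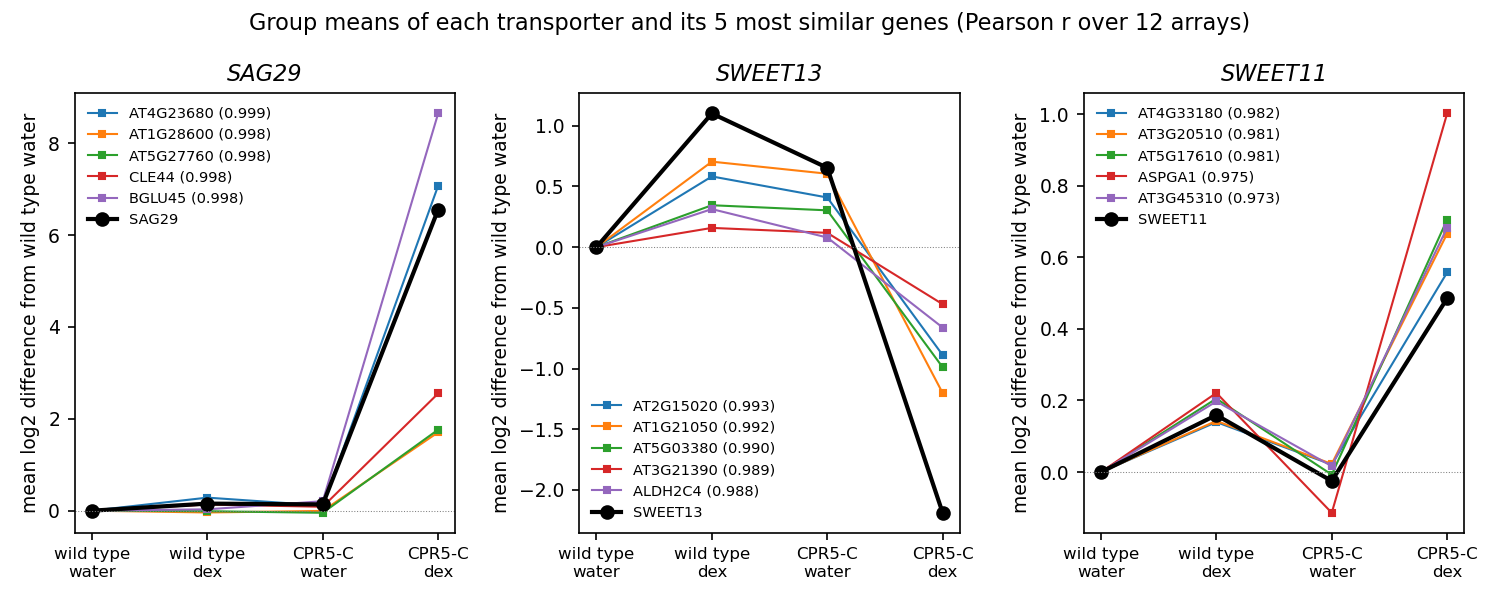
Mean log2 difference from wild-type water leaves (vertical axis, scale differing between panels) in the 4 groups for SAG29, SWEET13 and SWEET11 (black) and the 5 single-gene probe sets with the highest Pearson r to each (coloured, r in brackets). Points are means of 3 arrays and lines only join them; SWEET13 is at 1.10 in dexamethasone-sprayed wild type, above all 5 of its nearest genes.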

How the data were processed

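Per the submitters' processing notes, RMA gave the log2 values the authors deposited. Its version is not given in the sources used here, and log2 was taken as the base because RMA gives it. Tested on the file, each of 22810 probe sets had a median of 0 over the 12 arrays (tolerance 1e-06). After 64 control probe sets were left out, 22746 were tested. Symbols came from the platform annotation, in which 13513 probe sets had 1 gene, 503 several and 8730 are unnamed here; 13484 matched a locus of TAIR10.1, which was used for names and gene order only.

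A mean per group was fitted to all 12 arrays by lmFit and eBayes of limma 3.58.1 (R 4.3.3; 8 residual and 5.79 prior degrees of freedom), with two-sided p-values adjusted by Benjamini-Hochberg over all probe sets within each of 5 comparisons. The number of arrays limits the precision. The 3 genes and the 14 lists (122 loci, 38 measured) were chosen with earlier results of these data known. Named genes were the 3 transporters, all other measured SWEET genes, up to 4 genes per list by smallest p in CPR5-C plants, and the 5 genes most like each transporter. The grouping of vacuolar SWEET genes was made after the values were seen. Figures used matplotlib 3.10.9.

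Alternatives were the replicate number as a block, arrays of the compared groups only, quantile normalization, arrays centred on their median, arrays scaled to the mean of 24 poly-A spike probe sets, a trended robust variance, array weights, single-gene probe sets only, other thresholds, Spearman's rho in place of Pearson's r, and leaving out every array in turn.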

Additional observations from a re-analysis of the deposited data

Results flagged for a closer look

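SWEET13 was singled out because the genotypes moved apart: all 3 dexamethasone arrays lay above the water arrays in wild type and below them in CPR5-C plants, a difference of -3.94 on the log2 scale. This difference was not tested here, since the gene was chosen for it.

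For the following genes the dexamethasone response of CPR5-C plants minus that of wild type passed the test (limma, adjusted p under 0.05 over all probe sets), as it did for 38.5% of all probe sets. Among SWEET genes this held for SWEET4 (2.85), SWEET1 (1.05), SWEET10 (0.47), SWEET17 (-2.11) and SWEET2 (-1.11). Among other sugar carriers it held for TST1 (3.25), STP3 (1.23), SFP2 (-2.13), SFP1 (-0.64) and TST2 (-0.50). For sucrose enzymes the difference was -1.92 for SPS4F, 1.17 for CWINV6 and 0.92 for VI1. The senescence genes SAG101 (0.78) and WRKY6 (0.75), the gibberellin receptors GID1A (0.59), GID1B (0.56) and GID1C (-0.77) and the guard cell genes GASA9 (-2.45) and FMA (-0.35) also differed. The FMA call was lost without any 1 of 7 arrays and that of GID1B without any 1 of 5. With quantile normalization 2 of the 5 SWEET genes and 6 of these 15 other genes passed, beside 15.6% of all probe sets.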

How the results depend on the processing

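The difference of SWEET13 between the water groups kept its direction and its call under all 20 alternatives run on it (limma adjusted p = 0.000330 to 0.0263), and neither SAG29 nor SWEET11 was called there under any of them. These p-values for SWEET13 are not independent of its choice either, which rested in part on the same water arrays of both genotypes. That the call was kept therefore carries no weight as a test. Leaving out a dexamethasone array cannot move this difference, only its SE and p-value. Quantile normalization gives all arrays the same spread. Run on the centred values, it narrows the CPR5-C dexamethasone arrays and widens the others by construction, so shifts under it are in part built in. With it the log2 difference in CPR5-C plants was 2.86 for SAG29, -1.76 for SWEET13 and 0.45 for SWEET11. The difference in wild type was 2.62 for SWEET13. The difference between the responses was then 2.54, -4.38 and 0.24 in that order of genes, and CPR5-C against wild type after dexamethasone was 2.77 for SAG29 and 0.098 for SWEET11. With spike scaling the CPR5-C differences were 6.83, -2.43 and 0.92, and those in wild type 0.93 for SWEET13 and -0.014 for SWEET11. The response differences were 6.85, -3.36 and 0.94, and the genotype differences after dexamethasone 6.92, -2.77 and 0.85. Leaving out 1 array gave 6.34 to 6.50, -2.92 to -2.75 and 0.46 to 0.55 for SAG29, SWEET13 and SWEET11 in CPR5-C plants, and -0.0084 to 0.25, 1.06 to 1.15 and 0.14 to 0.17 in wild type.

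Among values of other genes that passed in the fit as reported or under the alternative, some turned in sign. With quantile normalization these were GID1B for the difference between responses (-0.19) and VGT2 for CPR5-C against wild type after dexamethasone (-0.0026). With spike scaling the CPR5-C response was 0.34 for RCA, 0.23 for SWEET5, 0.15 for TST2, 0.38 for SWEET14, 0.13 for FMA and 0.41 for SWEET9. The difference between responses was 0.50 for RCA, 0.57 for VGT2, 0.083 for TST2 and 0.24 for FMA. The genotype difference after dexamethasone was 0.47 for RCA, 0.079 for GID1C, 0.45 for SWEET5, 0.31 for TST2, 0.50 for SWEET14, 0.38 for FMA and 0.041 for SWEET16.

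The 5 comparisons follow in the order CPR5-C response, wild-type response, difference of responses, genotypes after water and genotypes after dexamethasone. The probe sets called numbered 10895, 2065, 8755, 1610 and 10786, of which 48.7%, 55.9%, 47.1%, 60.1% and 49.2% were higher. With spike scaling 87.8%, 13.3%, 93.3%, 34.0% and 91.7% of the calls were higher and the medians of all probe sets were 0.39, -0.17, 0.59, -0.057 and 0.53, with 15212, 987, 15511, 462 and 18423 calls. A change of at least 1 left 2441, 205, 2363, 90 and 2356. An adjusted p under 0.01 left 1152 for the wild-type response and 783 after water. Quantile normalization gave 5557 for the CPR5-C response, 3538 for the difference of responses and 5110 after dexamethasone. With single-gene probe sets only, where fewer were tested, the calls were 5798, 1012, 4555, 708 and 5744. Without 1 array the count after water was 900 to 1665, with 922 without CPR5-C water replicate 2, 900 without replicate 3 and 1019 without wild-type water replicate 3.

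Spike scaling called 66.9%, 4.34%, 68.2%, 2.03% and 81.0% of all probe sets, and quantile normalization 24.4%, 10.2%, 15.6%, 8.47% and 22.5%. Of the 13 other SWEET genes, 11, 1, 11, 0 and 12 passed with spike scaling. Quantile normalization passed 1 in wild type, 2 for the difference of responses, 2 after water and 3 after dexamethasone. The wild-type count was 1 with the compared groups only and 0 to 1 without 1 array (SWEET16 without CPR5-C dexamethasone replicate 2, SWEET1 without replicate 3), and array weights passed 1 after water. Without 1 array SWEET3 or SWEET9 passed in 3 fits after dexamethasone. Of the 22 other list genes, quantile normalization passed 11 in CPR5-C plants, 6 for the difference of responses and 8 after dexamethasone. In wild type 1 passed with spike scaling, with the compared groups only and with the replicate block, and 1 to 3 without 1 array. After water 0 passed with spike scaling, 5 with array weights, 2 with the replicate block and 0 to 2 without 1 array. Leaving out 1 array changed 56 of 2100 results of single genes. By Spearman's rho 0 of the 5 genes most like each transporter were shared. The cause of these changes was not tested.

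No pairing by replicate number was seen: deviations of same-numbered arrays correlated at -0.21 to 0.36 (18 pairs), and those of other pairs at -0.40 to 0.42 (36 pairs). An array was closest to its own number in 5 of 36 comparisons. As the deviations of 3 arrays sum to 0 within a group, this could not show whether arrays shared a batch. With the replicate block the calls numbered 10671, 1852, 8487, 1352 and 10558, the SWEET13 difference after water passed (limma adjusted p = 0.00172), and VGT2 lost its call after dexamethasone (0.0548), which left 15 of the 22 list genes called there. Precision is limited by 3 arrays per group, and the centred values hold neither levels nor background.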
